A study of Homo sapiens with 12 samples.

Results

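The G2/M and mitosis genes are 42 genes whose products drive cells into and through mitosis. They were listed by symbol and looked up by gene ID in the count tables of an RNA-seq study of human cells labelled Huh-7 and Hep-3B. The 42 genes comprise 9 kinesins, 9 kinetochore and checkpoint genes, 8 cyclins and entry kinases, 3 genes tied to the anaphase-promoting complex (APC/C), 5 chromosome structure genes and 8 spindle and cytokinesis genes. All 42 were found in both tables, of 25714 genes for Huh-7 and 25720 for the line labelled Hep-3B. The study holds 4 groups of 3 libraries: Huh-7 cells given an siRNA against ARD1 (siARD1), Huh-7 cells given a negative-control siRNA, and the same pair of treatments in cells labelled Hep-3B. NAA10, which the labels call ARD1, is the enzyme subunit of NatA, a complex that acetylates the N termini of new proteins. Huh-7 and Hep-3B are established hepatoma lines, but hepatocyte markers, given below, went against the Hep-3B label. The controls were transfected too, and the sources used here give no siRNA sequence, dose or time. The labels do not say whether the replicates were separate cultures, so each p-value measures only the spread between these libraries.

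At the end of G2 the kinase CDK1, bound to B-type cyclins, starts mitosis together with polo and Aurora kinases. Kinesins are motor proteins that slide, cross-link or shorten microtubules of the spindle and carry chromosomes along them. Kinetochores tie chromosomes to microtubules, and the spindle checkpoint built on them holds back the APC/C, the ubiquitin ligase whose activation destroys cyclin B and securin and ends mitosis. Most of these genes are transcribed late in the cycle, under the DREAM, B-MYB and FOXM1 factors, and are widely read as proliferation genes in liver cancer.

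The promoters of these genes are known for a pair of short elements, the cell cycle homology region (CHR), read here as TTTGAA or TTCGAA, and the CCAAT box. In windows of 250 bases before to 50 bases after each start in RefSeq (GRCh38.p14), 36 of the 42 genes had 45 promoters, and TTK, BIRC5, UBE2C, AURKA, TPX2 and BUB3 are named without one. TTTGAA or TTCGAA was found on either strand in 32 of the 45 windows (71.1%), against 16.4% of all 35116 windows. CCAAT was found on either strand in 30 of 45 (66.7%), against 34.6% of all windows, and 2 or more copies stood in 37.8% of member windows, against 10.8% of all. The motif pair was searched for independently and can overlap, and a match describes letters only. The stretches below were chosen after values were seen, to set genes with large responses (CENPE, KIF11, CDK1) beside genes with small or opposite ones. They lie before the start, hold no exon base of GENCODE v29, run 5′ to 3′ on the gene's strand, and carry every match in capitals, both elements alike. CDK1 is shown at 1 of its 2 starts. The whole windows of these 2 starts hold 1 and 3 copies of TTTGAA and 1 and 2 copies of CCAAT, respectively.
CENPE, chr4:103198410-103198579, minus strand: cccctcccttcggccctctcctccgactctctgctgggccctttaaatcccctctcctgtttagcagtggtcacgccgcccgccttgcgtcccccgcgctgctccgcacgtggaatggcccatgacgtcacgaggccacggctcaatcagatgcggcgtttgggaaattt
KIF11, chr10:92592960-92593129, plus strand: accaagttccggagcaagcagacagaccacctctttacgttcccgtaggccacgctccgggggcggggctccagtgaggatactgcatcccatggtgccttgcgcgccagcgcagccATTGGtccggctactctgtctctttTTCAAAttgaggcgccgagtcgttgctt
CDK1, chr10:60778161-60778330, plus strand: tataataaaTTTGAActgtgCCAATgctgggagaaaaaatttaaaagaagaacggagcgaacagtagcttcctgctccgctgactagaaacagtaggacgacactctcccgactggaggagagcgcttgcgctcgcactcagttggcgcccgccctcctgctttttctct
TOP2A, chr17:40417951-40418120, minus strand: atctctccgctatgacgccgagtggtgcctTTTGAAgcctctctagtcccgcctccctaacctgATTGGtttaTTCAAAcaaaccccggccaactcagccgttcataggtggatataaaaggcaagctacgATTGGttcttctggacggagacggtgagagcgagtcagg
MKI67, chr10:128126424-128126593, minus strand: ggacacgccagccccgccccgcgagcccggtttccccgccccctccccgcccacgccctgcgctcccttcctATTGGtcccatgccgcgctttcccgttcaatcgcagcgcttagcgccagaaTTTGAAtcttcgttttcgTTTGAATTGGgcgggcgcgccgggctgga
CCNB2, chr15:59104908-59105077, plus strand: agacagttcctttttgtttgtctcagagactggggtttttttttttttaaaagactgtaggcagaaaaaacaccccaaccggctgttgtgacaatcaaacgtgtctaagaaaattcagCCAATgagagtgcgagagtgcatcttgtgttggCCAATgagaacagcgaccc
CDC20, chr1:43358785-43358954, plus strand: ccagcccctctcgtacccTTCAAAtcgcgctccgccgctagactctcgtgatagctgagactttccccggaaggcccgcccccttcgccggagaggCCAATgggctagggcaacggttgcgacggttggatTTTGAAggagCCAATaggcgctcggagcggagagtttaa
KIF4A, chrX:70289980-70290089, plus strand: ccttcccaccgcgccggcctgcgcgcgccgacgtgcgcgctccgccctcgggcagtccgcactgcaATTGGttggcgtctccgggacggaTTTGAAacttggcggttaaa
The KIF11 window holds an inverted CCAAT 53 bases and a CHR match 28 bases before the start, and the KIF4A window has the same pair at 58 and 34 bases. In MKI67 the matches at 29 and 24 bases share letters. The stretch from CENPE, the member with the largest fold change among those called in each line, holds neither element, and its whole window holds none. The stretch shown for CCNB2 holds 2 CCAAT copies, while its whole window holds 4 CCAAT and 1 TTTGAA, which lies outside the stretch.

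Library totals ran from 17327615 to 25960237 counts. NAA10 fell to 13.2, 9.86 and 9.99 CPM (counts scaled to library size with TMM factors) in the siARD1 libraries of Huh-7, against 165, 156 and 200.2 CPM in the controls, which left 6.34% of the fitted level. In the libraries labelled Hep-3B it stood at 10.9, 15.6 and 14.4 CPM after siARD1, against 48.4, 58.7 and 58.7 CPM in the controls, which left 24.9%. The groups did not overlap in either line, and p was 0.1 in each by an exact permutation test (two-sided), which cannot go lower with 3 against 3. Hepatocyte markers went against the Hep-3B label. The 10 markers summed to 27449 to 30712 CPM after siARD1 and 35737 to 36623 CPM in the controls of Huh-7, against 214 to 228 CPM after siARD1 and 395 to 484 CPM in the controls labelled Hep-3B. In the libraries labelled Hep-3B 5 of the 10 passed 1 CPM in every library. ALB reached at most 6.15 CPM there, and TTR and APOA2 stood at 0 in all siARD1 libraries. FGB made up most of the sum, at 136 to 141 CPM after siARD1 and 290 to 365 CPM in the controls. HNF4A stood at 42.2 to 48.7 CPM in these libraries. These are called the libraries labelled Hep-3B throughout. The sum of 5 leukocyte markers stayed between 1.69 and 12.2 CPM in all 12 libraries, the 8 fibroblast markers between 33.8 and 175 CPM and the 5 endothelial markers between 10.9 and 77.4 CPM. In Huh-7 the siARD1 sums of all 4 lists lay below the control sums without overlap, and in the line labelled Hep-3B those of the hepatocyte list alone did. The part of the marker lists in the results below was not tested.

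Of the 42 genes, 41 passed the filter on low counts in both lines, the lowest value in any library being 1.39 CPM, in PRC1. NUSAP1, a spindle gene, had 29 counts in the siARD1 and 27 in the control libraries of Huh-7, and 26 and 20 counts in those labelled Hep-3B, and was not tested. PRC1, the midzone cross-linker, was tested at 1.45, 1.66 and 1.88 CPM after siARD1 in Huh-7, against 2.20, 2.50 and 2.50 CPM in the controls, far below every other member. Per kilobase of merged exons, PRC1 stood at 0.301 CPM per kb after siARD1 and 0.434 in the Huh-7 controls, while the medians over the members were 23.6 and 24.6 CPM per kb. CENPE, also low per length, stood at 4.68 CPM per kb after siARD1 and 7.32 in the Huh-7 controls. In GENCODE v29, 62.2% of NUSAP1 exon bases and 57.6% of PRC1 exon bases are shared, on the same strand, with another annotated gene. The gene that overlaps PRC1 (ENSG00000284946) averaged 10.8 ± 1.03 CPM after siARD1 and 14.2 ± 0.838 CPM in the Huh-7 controls (SD, n = 3 each), while the one that overlaps NUSAP1 is not in the tables. The sources used here do not say how reads in shared exons were counted, so the values of PRC1 and NUSAP1 are uncertain. The rest of the text names neither with a direction. PRC1 stays in the counts, medians and means over the tested members and in the figures. It is among the 18 members counted below as lower without overlap in Huh-7.

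**Figure D1:**
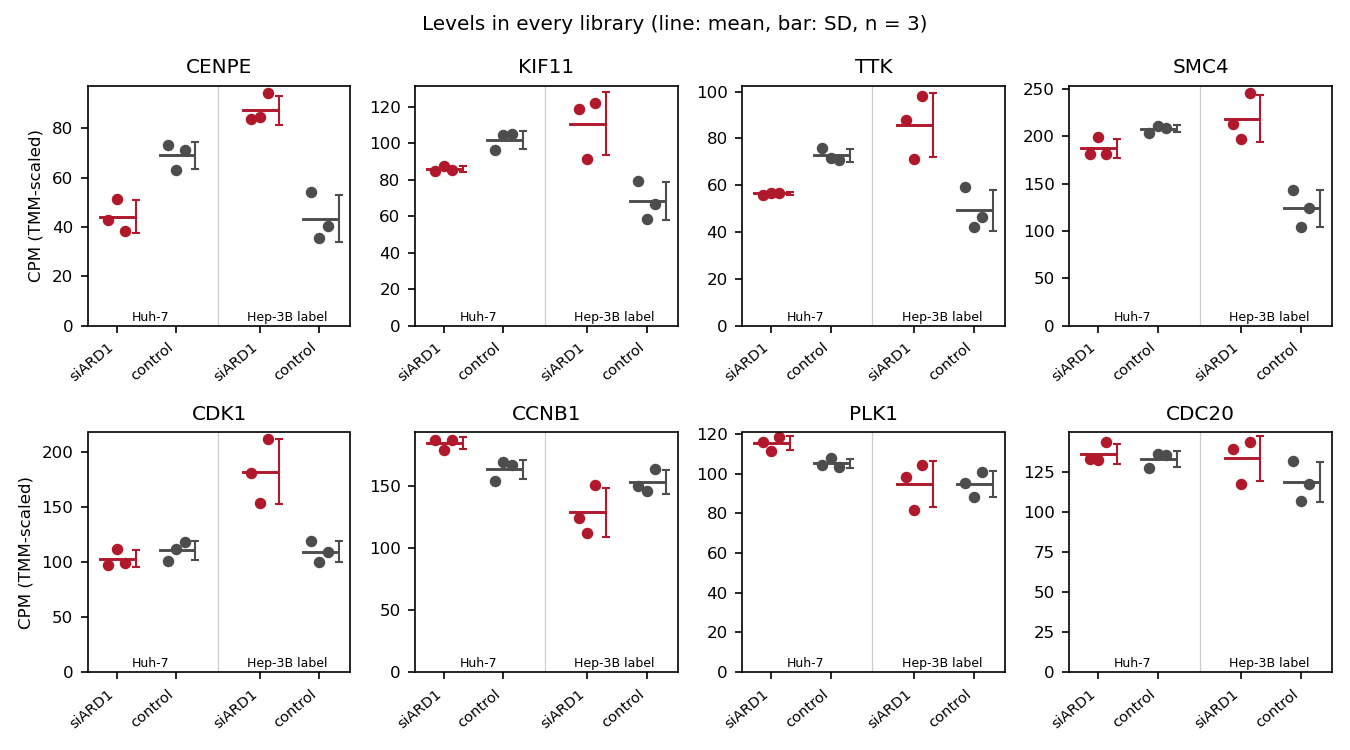
Levels of 8 members in every library, in CPM scaled by TMM factors, with siARD1 in red and control in grey, Huh-7 on the left and the libraries labelled Hep-3B on the right of each panel. Points are libraries, lines are means and bars are SD (n = 3). CENPE, KIF11, TTK and SMC4 lie lower after siARD1 in Huh-7 and higher after siARD1 in the libraries labelled Hep-3B, without overlap, while the groups of CDC20 overlap in both lines and those of PLK1 only in the libraries labelled Hep-3B.

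In Huh-7 more members fell than rose, by small amounts, and 22 did not pass. CENPE, TTK and PTTG1 showed the clearest declines, and only KIF4A, CCNB1 and CCNA2 rose. Of 41 tested members 16 fell and 3 rose by edgeR's quasi-likelihood test (adjusted p under 0.05), which is 39.0% and 7.32% of them. Over all 15919 genes tested, 40.1% changed, 18.9% fell and 21.2% rose. Without siARD1 library 1 of Huh-7, 8 members fell and 3 rose, which is 19.0% and 7.14% of the 42 then tested, against 15.8% and 18.7% of all genes, and without control library 3, 10 fell (23.8%, against 15.1% of all genes). Without siARD1 library 2, 5 rose (11.9%, against 19.0%), and without control library 2, 2 rose (4.88%, against 18.4%). The median log2 fold change was -0.12 over the members and -0.01 over all genes. The siARD1 and control values did not overlap in 25 members, 18 lower and 7 higher after siARD1, against 23.9% of all genes lower and 26.1% higher. In bulk libraries, fewer cells in G2 or mitosis and less mRNA per cell cannot be told apart.

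Among the kinesins, 5 of 9 fell in Huh-7 and 1 rose. CENPE (chr4:103105806-103198409), the motor that carries chromosomes to the spindle equator, stood at 42.8, 51.3 and 38.5 CPM after siARD1, against 73.4, 62.9 and 71.1 CPM in the controls. Every siARD1 value lay below every control value, and CENPE fell by 0.64 on the log2 scale (SE 0.09, edgeR adjusted p = 3.77e-05). KIF11 (chr10:92593286-92655395), which pushes the spindle poles apart, had 84.6, 87.8 and 85.1 CPM after siARD1, against 96.2, 104.7 and 105 CPM in the controls. The groups did not overlap, and KIF11 fell by 0.25 on the log2 scale (SE 0.06, edgeR adjusted p = 0.00107). KIF20A, needed for cytokinesis, fell by 0.27 (adjusted p = 0.000893), while KIF14 (-0.19) and KIF18A (-0.17), a motor that damps chromosome movements, fell less. KIF4A, a chromosome-bound motor, was the kinesin that rose, with 110, 106 and 110 CPM after siARD1, against 95.8, 86.2 and 93.4 CPM in the controls (0.24, SE 0.06, adjusted p = 0.00136). KIF15, KIF23 and KIF2C lay between -0.06 and -0.04 and did not pass.

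Of the 9 kinetochore and checkpoint genes, 3 fell in Huh-7 and the other 6 did not pass. TTK, also called MPS1, the kinase that starts checkpoint signalling, had 55.9, 56.7 and 56.9 CPM after siARD1, against 75.8, 71.6 and 70.8 CPM in the controls. These siARD1 values were close together and all below the controls, with a change of -0.36 on the log2 scale (SE 0.06, edgeR adjusted p = 4.26e-05). CENPF, a large outer kinetochore protein, fell by 0.23 (adjusted p = 0.000859), and so did NUF2 (-0.25, adjusted p = 0.0205), whose groups overlapped in 1 library pair. NDC80, the partner of NUF2 in the microtubule-binding complex, was at -0.05 (adjusted p = 0.489). The checkpoint genes BUB1 (-0.12), MAD2L1 (-0.13), BUB1B (0.10) and BUB3 (0.10) and the centromeric histone gene CENPA (-0.18) did not pass.

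Cyclins and entry kinases were split in Huh-7, with 2 of 8 higher and 2 lower. CCNB1, the main mitotic cyclin, had 187, 179 and 187 CPM after siARD1, against 154, 169 and 167 CPM in the controls. The groups did not overlap and CCNB1 rose by 0.18 (SE 0.05, edgeR adjusted p = 0.0110). CCNA2, the cyclin of S phase and G2, rose by 0.16 (adjusted p = 0.0199). AURKB, the kinase that corrects faulty attachments, fell by 0.19 (adjusted p = 0.00888), and CDC25C, a phosphatase that activates CDK1, fell by 0.21 (adjusted p = 0.0336). CDK1 itself (chr10:60778331-60794852) stood at 97.1, 112 and 99.4 CPM after siARD1, against 101, 112 and 118 CPM in the controls, with overlapping groups (-0.11, SE 0.06, adjusted p = 0.203). PLK1, the polo kinase of mitotic entry, had 116, 112 and 119 CPM after siARD1, against 105, 108 and 104 CPM in the controls. Its groups were apart, but the adjusted p was 0.0526 (log2 fold change 0.13, SE 0.05). AURKA, the centrosomal Aurora kinase, was at 0.16 (adjusted p = 0.0607) and CCNB2 at -0.12 (adjusted p = 0.162).

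Of the 3 APC/C genes, PTTG1, which encodes securin, the APC/C substrate that guards sister chromatid cohesion, fell in Huh-7. It had 128, 117 and 132 CPM after siARD1, against 152, 163 and 161 CPM in the controls (-0.34, SE 0.06, edgeR adjusted p = 4.83e-05), with no overlap. CDC20, the activator of the APC/C in mitosis, stood at 133, 133 and 144 CPM after siARD1, against 128, 136 and 136 CPM in the controls. These groups overlapped, and the change of 0.04 (SE 0.05, adjusted p = 0.621) did not pass, nor did that of UBE2C (0.09), the ubiquitin-conjugating enzyme of the complex.

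In chromosome structure, 3 of 5 genes fell in Huh-7. TOP2A, the topoisomerase that untangles sister chromatids, had 422, 414 and 454 CPM after siARD1, against 490.4, 498 and 504 CPM in the controls. The groups were apart and the log2 fold change was -0.21 (SE 0.05, edgeR adjusted p = 0.00281). MKI67, the gene of the Ki-67 proliferation antigen, had 429, 422 and 464 CPM after siARD1, against 497, 496 and 479.9 CPM in the controls. It fell by 0.16 (SE 0.05, adjusted p = 0.0175) without overlap. The condensin core gene SMC4 fell by 0.15 (adjusted p = 0.0255), while its partner SMC2 was at 0.02 and the condensin I subunit NCAPG at -0.06. Of the 7 tested spindle and cytokinesis genes, ASPM (-0.22) and DLGAP5 (-0.20), which act at spindle poles and fibres, fell and 5 did not pass, among them the cytokinesis genes ECT2 (-0.06) and ANLN (-0.02) and the spindle assembly factor TPX2 (0.09).

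The calls in Huh-7 differed in how far they rested on single libraries. Leaving out each library in turn kept KIF11, KIF20A, KIF4A, CENPE, TTK, CENPF, CCNB1, PTTG1 and TOP2A past the threshold. Without siARD1 replicate 1, 8 members fell, and KIF14, KIF18A, NUF2, CDC25C, MKI67, SMC4, ASPM and DLGAP5 were no longer called. Without siARD1 replicate 2, AURKB, CDC25C, MKI67 and DLGAP5 were lost and 5 members rose. Without siARD1 replicate 3, KIF18A, NUF2, CCNA2 and SMC4 were lost. Leaving out control 1 ended the call of KIF14, leaving out control 2 those of KIF18A, NUF2, CCNA2, CDC25C, MKI67 and SMC4, and leaving out control 3 those of KIF14, KIF18A, NUF2, CDC25C, SMC4 and DLGAP5, with 10 members fallen. With upper-quartile in place of TMM factors, 23 members fell in Huh-7 (56.1%, against 24.4% of all genes). Then 1 rose (2.44%, against 16.1%), and CCNB1 and CCNA2 were no longer called. Of all called genes 39.7% were higher after siARD1 with these factors, against 52.9% with TMM.

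**Figure D2:**
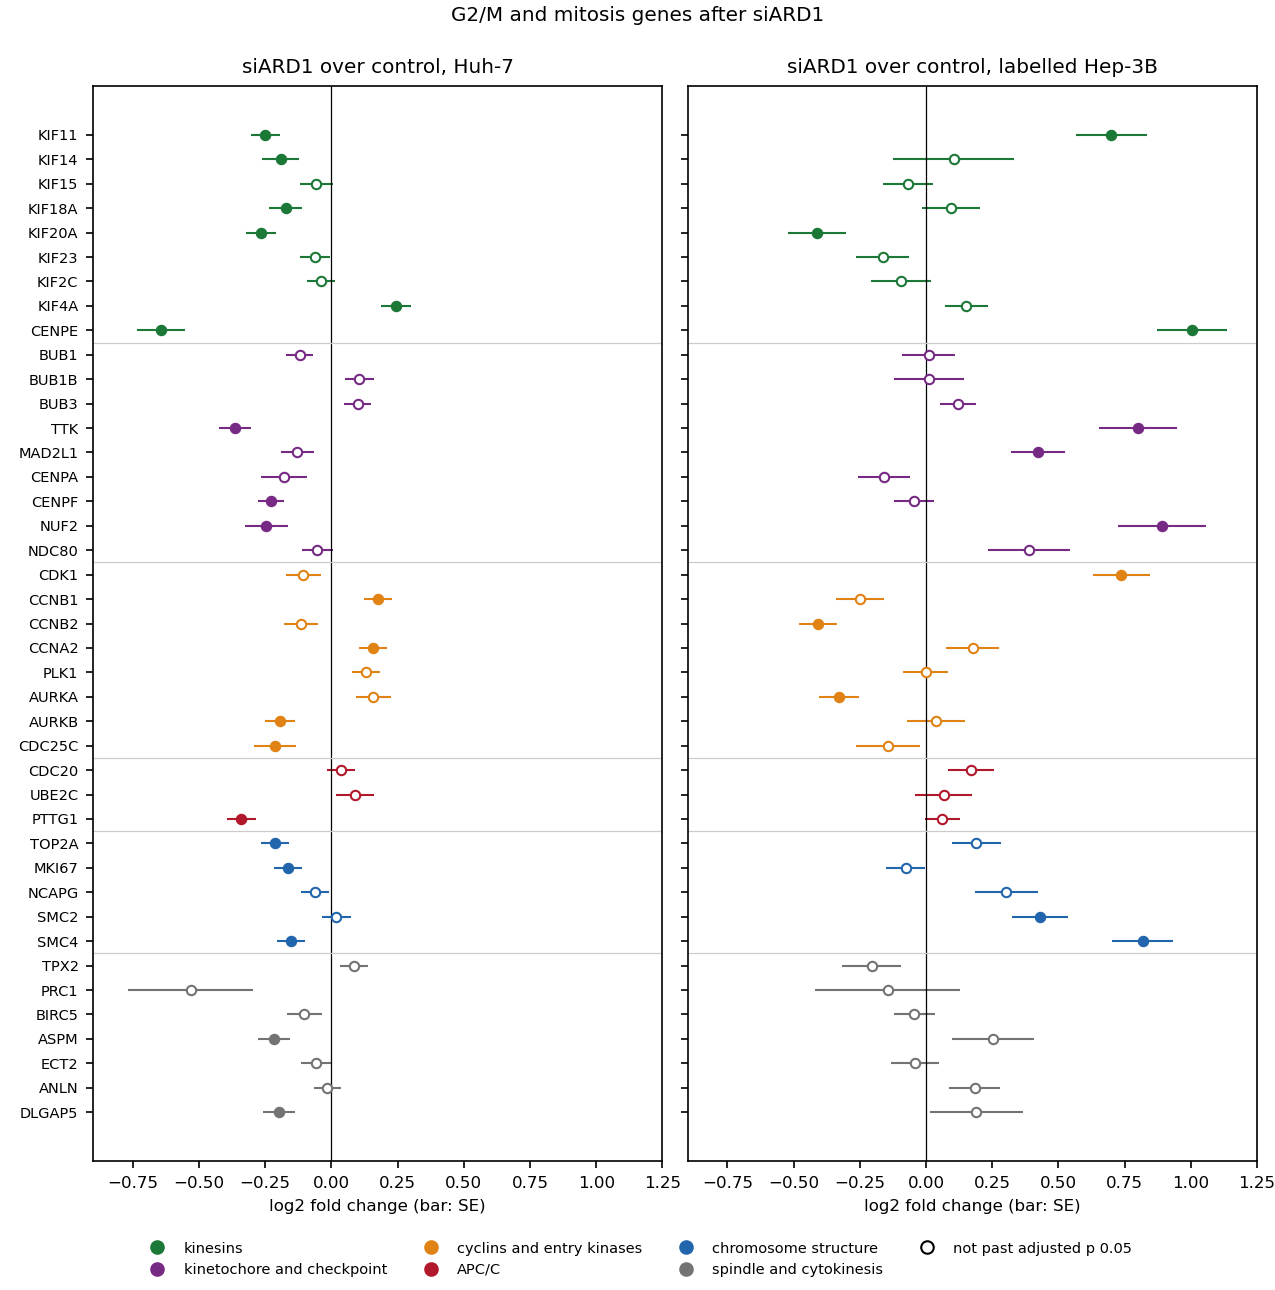
Log2 fold change of siARD1 over control for the 41 tested members, by class, in Huh-7 (left) and in the libraries labelled Hep-3B (right). Bars are SE and open points did not pass an adjusted p of 0.05. Most Huh-7 points lie left of 0, with CENPE lowest among the called genes at -0.64, while CENPE at 1.01 is the highest point of the other panel.

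In the libraries labelled Hep-3B, a few members rose by larger amounts and most did not pass. The 8 that rose were CENPE, NUF2, SMC4, TTK, CDK1, KIF11, SMC2 and MAD2L1, and the 3 that fell were KIF20A, CCNB2 and AURKA. The 11 changed members are 26.8% of the 41 tested, against 32.2% of all 15762 genes tested. That order was not stable: the share among the members was above the share of all genes in 10 of 13 alternative fits, those that left out any 1 library included. Rises made up 19.5% of the members and 16.8% of all genes, and falls 7.32% of the members and 15.3% of all genes. The median log2 fold change was 0.07 over the members and -0.01 over all genes. The same 11 members were those whose groups did not overlap, 8 higher and 3 lower after siARD1, against 22.7% of all genes higher and 22.3% lower.

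CENPE had 83.6, 84.4 and 94.1 CPM after siARD1 there, against 54.2, 35.7 and 40.3 CPM in the controls. All siARD1 values lay above all controls, and the log2 fold change was 1.01 (SE 0.13, edgeR adjusted p = 0.000373). KIF11 had 119, 91.3 and 122 CPM after siARD1, against 79.1, 58.3 and 67.0 CPM in the controls (0.70, SE 0.13, adjusted p = 0.00403), also apart. KIF20A was the kinesin that fell, with 118, 93.9 and 123 CPM after siARD1, against 166, 131 and 149 CPM in the controls (-0.41, SE 0.11, adjusted p = 0.0155). Without control replicate 3 the call of KIF20A was lost (adjusted p = 0.0562). The other 6 kinesins ran from -0.16 in KIF23, the centralspindlin motor, to 0.15 in KIF4A.

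At the kinetochore, TTK had 88.1, 71.3 and 98.2 CPM after siARD1, against 59.1, 41.98 and 46.6 CPM in the controls. It rose by 0.80 (SE 0.15, edgeR adjusted p = 0.00373) with no overlap. NUF2 had 50.1, 40.7 and 49.4 CPM after siARD1, against 30.9, 18.4 and 25.6 CPM in the controls, the largest rise of the class at 0.89 (SE 0.17, adjusted p = 0.00329). MAD2L1, the checkpoint protein that binds CDC20, rose by 0.42 (SE 0.10, adjusted p = 0.00632). NDC80 had 98.2, 78.1 and 114 CPM after siARD1, against 72.0, 63.9 and 86.0 CPM in the controls, which overlap, and its 0.39 (SE 0.16) gave an adjusted p of 0.0984. BUB1 and BUB1B were both at 0.01, BUB3 at 0.12, CENPF at -0.05 and CENPA at -0.16, none of which passed.

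Of the entry genes, CDK1 had 181, 153 and 212 CPM after siARD1, against 119, 99.8 and 109 CPM in the controls. It rose by 0.74 (SE 0.11, edgeR adjusted p = 0.000433) with the groups apart. CCNB2, a B-type cyclin that partners CDK1, had 74.7, 65.2 and 77.1 CPM after siARD1, against 94.8, 92.7 and 100.5 CPM in the controls, and fell by 0.41 (SE 0.07, adjusted p = 0.000484). CCNB1 stood at 124, 112 and 150.4 CPM after siARD1, against 149.9, 146 and 164 CPM in the controls, which overlapped, at -0.25 (SE 0.09, adjusted p = 0.0538). AURKA fell by 0.33 (SE 0.08, adjusted p = 0.00363). PLK1 had 98.3, 81.8 and 104 CPM after siARD1, against 95.5, 88.1 and 101 CPM in the controls, with overlap and a log2 fold change of 0.00 (SE 0.08). CDC20 had 139, 118 and 144 CPM after siARD1, against 132, 107 and 118 CPM in the controls (0.17, SE 0.09, adjusted p = 0.152), also overlapping. Of the 3 APC/C genes 0 passed by edgeR, DESeq2 or limma-voom, and 0 had an unadjusted p under 0.05.

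Both core condensin genes rose. SMC4 had 213, 197 and 246 CPM after siARD1, against 143, 104 and 125 CPM in the controls (0.82, SE 0.12, edgeR adjusted p = 0.000524), and SMC2 rose by 0.43 (adjusted p = 0.00763). NCAPG was at 0.30 (adjusted p = 0.0740). TOP2A had 566, 486 and 615 CPM after siARD1, against 524, 426 and 511 CPM in the controls (0.19, adjusted p = 0.137). MKI67 had 413, 341 and 404 CPM after siARD1, against 419.8, 375 and 428 CPM in the controls (-0.08, adjusted p = 0.460), and the groups of both overlapped. Of the 7 tested spindle and cytokinesis genes 0 passed by edgeR, DESeq2 or limma-voom, and 0 had an unadjusted p under 0.05. They ran from -0.21 in TPX2 to 0.25 in ASPM.

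The libraries numbered 2 were low in both groups labelled Hep-3B. The siARD1 library 2 was the lowest of its group in 39 of 41 members and the control library 2 the lowest of its group in 36 of 41. The mean log2 CPM over the members was 6.56, 6.32 and 6.69 after siARD1, against 6.48, 6.24 and 6.44 in the controls, so these groups overlapped. In Huh-7 the same mean was 6.55, 6.55 and 6.61 after siARD1, against 6.64, 6.70 and 6.70 in the controls, without overlap. Without the siARD1 library 2 in the line labelled Hep-3B, 15 members rose and 3 fell, which is 36.6% and 7.32% of the 41 tested, against 15.3% and 13.6% of all genes. Without both libraries numbered 2, 10 rose and 3 fell (24.4% and 7.32%, against 11.9% and 10.5% of all genes), and without siARD1 library 3, 8 rose and 6 fell (19.5% and 14.6%, against 13.5% and 11.4%).

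**Figure D3:**
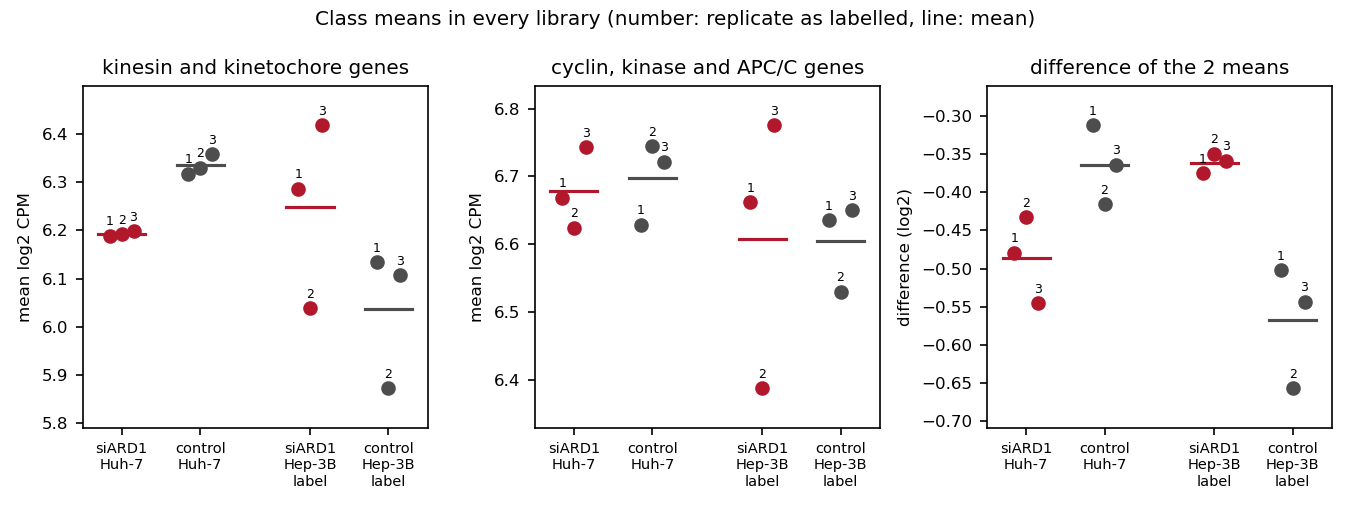
Mean log2 CPM of the 18 kinesin and kinetochore genes (left) and of the 11 cyclin, kinase and APC/C genes (middle) in every library, and their difference (right), with siARD1 in red and control in grey. The difference ran from -0.55 to -0.43 after siARD1 and from -0.42 to -0.31 in the Huh-7 controls, and from -0.38 to -0.35 after siARD1 and from -0.66 to -0.50 in the controls labelled Hep-3B.

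Kinesin and kinetochore genes were set against cyclin, kinase and APC/C genes in each line, as a description with no test. In Huh-7, 8 of 18 kinesin and kinetochore genes fell (44.4%) and 1 rose (5.56%). Of 11 cyclin, kinase and APC/C genes 3 fell (27.3%) and 2 rose (18.2%). Over all genes tested in Huh-7, 18.9% fell and 21.2% rose. The class medians of the log2 fold change were -0.15 and 0.04, a difference of -0.19. Averaged per library, kinesin and kinetochore genes stood at 6.19, 6.19 and 6.20 log2 CPM after siARD1, against 6.32, 6.33 and 6.36 in the controls. The cyclin, kinase and APC/C genes stood at 6.67, 6.62 and 6.74 after siARD1, against 6.63, 6.74 and 6.72 in the controls. In Huh-7 the groups were thus apart for the first class and overlapped for the second.

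In the libraries labelled Hep-3B, 5 of 18 kinesin and kinetochore genes rose (27.8%) and 1 fell (5.56%). Of 11 cyclin, kinase and APC/C genes 1 rose (9.09%) and 2 fell (18.2%). Over all genes tested there, 16.8% rose and 15.3% fell. The class medians were 0.10 and 0.04, a difference of 0.06, while the difference of the class means was 0.20. CENPE, NUF2, TTK and KIF11 lay farthest above 0 within the kinesin and kinetochore class, with CDK1 (0.74) highest in the other. Kinesin and kinetochore genes averaged 6.29, 6.04 and 6.42 log2 CPM after siARD1, against 6.13, 5.87 and 6.11 in the controls, with overlap. The difference between the classes within each library was -0.38, -0.35 and -0.36 after siARD1, against -0.50, -0.66 and -0.54 in the controls, with none. In Huh-7 the same difference was -0.48, -0.43 and -0.55 after siARD1, against -0.31, -0.42 and -0.36 in the controls, also without overlap and in the opposite direction. Once a trend on transcript length and GC content was removed, the difference of medians in the line labelled Hep-3B was -0.14 and that in Huh-7 -0.18. Without both libraries numbered 2 of the line labelled Hep-3B its difference of medians was 0.03.

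**Figure D4:**
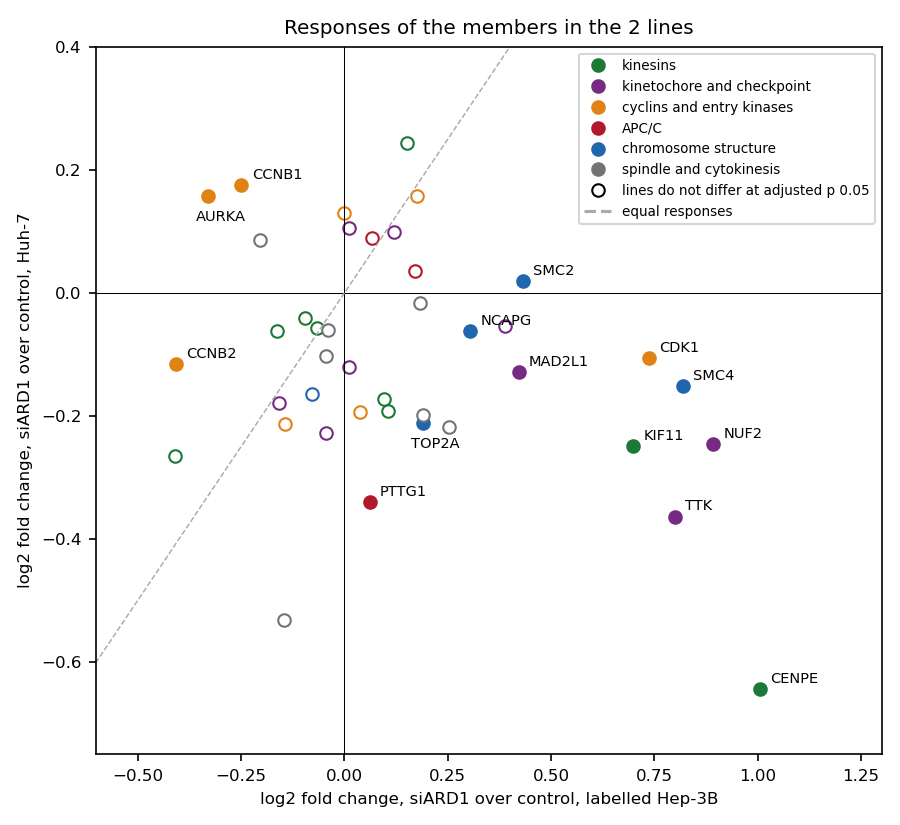
Log2 fold change of siARD1 over control in Huh-7 (vertical) against that in the libraries labelled Hep-3B (horizontal) for the 41 tested members. Filled points differ between the lines at an adjusted p of 0.05, and the dashed line marks equal responses. CENPE, TTK, NUF2, KIF11 and SMC4 lie at the lower right, fallen in Huh-7 and risen in the other line.

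The lines responded differently in 14 of 41 members (34.1%), by edgeR's test of the interaction. That is near the 31.4% of all 17122 genes in that fit. The Huh-7 response was lower in 11 members (26.8%) and higher in 3 (7.32%), against 16.2% and 15.2% of all genes. CENPE had a log2 fold change of -0.64 in Huh-7 and 1.01 in the line labelled Hep-3B, a difference of -1.67 (SE 0.20, adjusted p = 6.79e-05). TTK (-1.18), NUF2 (-1.15), SMC4 (-0.99), KIF11 (-0.96) and CDK1 (-0.86) followed, with adjusted p from 3.43e-05 to 0.000562. MAD2L1 (-0.57), SMC2 (-0.43), TOP2A (-0.42), PTTG1 (-0.42) and NCAPG (-0.38) differed by less in the same direction. The interaction was not fitted with the length and GC trend removed. With it removed within each line, SMC2 stood at 0.08 in Huh-7 and 0.15 in the other line. NCAPG was then at -0.02 and 0.09, TOP2A at -0.17 and -0.03, MAD2L1 at -0.09 and 0.22 and PTTG1 at -0.28 and 0.14. CENPE stood at -0.56 and 0.62. The genes with the higher Huh-7 response were AURKA (0.47, adjusted p = 0.00158), CCNB1 (0.41, adjusted p = 0.00695) and CCNB2 (0.28, adjusted p = 0.0398). The 5 genes KIF11, CENPE, TTK, NUF2 and SMC4 fell in Huh-7 and rose in the libraries labelled Hep-3B, which is 12.2% of the members, against 3.67% of the 13800 genes tested in both lines. KIF20A was the member that fell in both (2.44%, against 3.69% of all genes), and 17 passed in neither (41.5%, against 40.1%). Leaving out 1 of the 12 libraries ended the call of CCNB2 in 6 cases (siARD1 1 and 3 and controls 1 and 3 of Huh-7, siARD1 2 and control 3 of the line labelled Hep-3B) and that of NCAPG in all but siARD1 2 and control 1 of the line labelled Hep-3B. Without the siARD1 library 2 of that line the Huh-7 response was lower in 19 members (45.2% of the 42 then tested, against 15.1% of all genes).

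**Figure D5:**
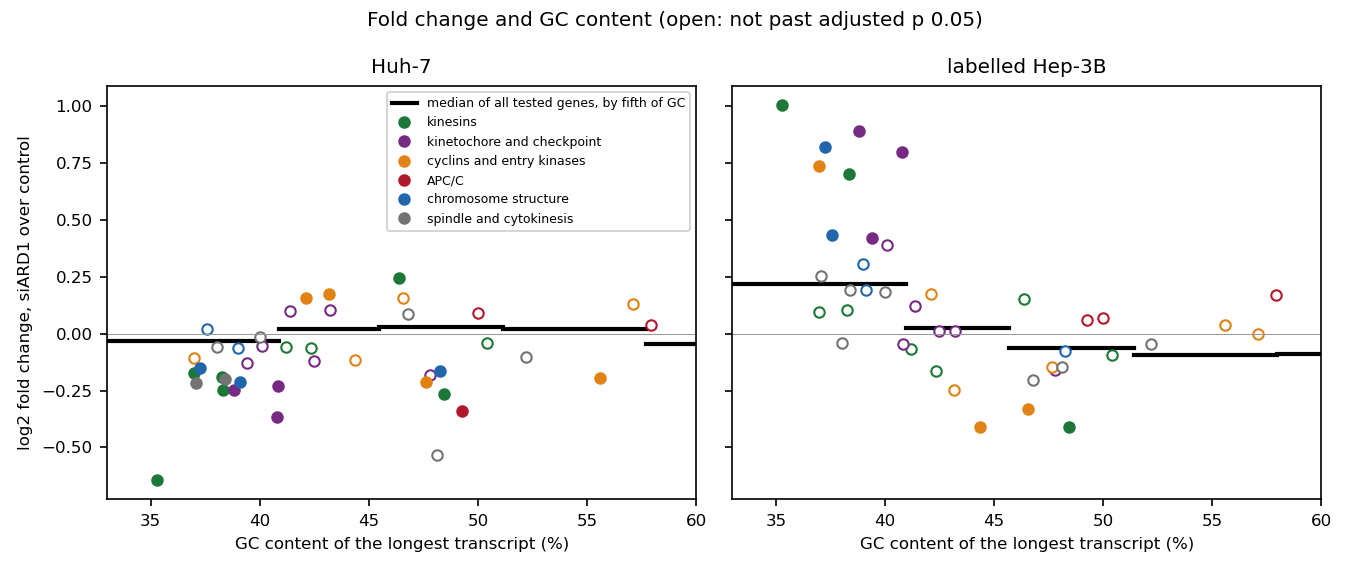
Log2 fold change of siARD1 over control against the GC content of each member's longest transcript, in Huh-7 (left) and in the libraries labelled Hep-3B (right). Black bars are medians of all tested genes in 5 equal bins of GC content, and open points did not pass an adjusted p of 0.05. The 8 genes that rose in the right panel all lie between 35.3 and 40.8% GC, where the median of all genes is 0.22.

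Fold changes moved with GC content in the libraries labelled Hep-3B. In 5 equal bins of genes from low to high GC content, the median of all genes was 0.22, 0.03, -0.06, -0.09 and -0.09, and in Huh-7 it was -0.03, 0.02, 0.03, 0.02 and -0.05. The 8 members that rose in the line labelled Hep-3B had 35.3 to 40.8% GC (median 38.0%), and the 3 that fell 44.3 to 48.4%, while the median of all genes was 48.3%. The lowest bin held 18 members, with a median of 0.35 against 0.22 over all its genes. With the trend on length and GC removed, the 8 had a median of 0.49, against 0.77 before, and all 8 were still above 0. TTK then stood at 0.65 and NUF2 at 0.69, while the other 6 moved by over 1.5 times, to 0.62 for CENPE, 0.53 for SMC4, 0.46 for KIF11, 0.45 for CDK1, 0.22 for MAD2L1 and 0.15 for SMC2. In Huh-7 the lowest bin also held 18 members, with a median of -0.18 against -0.03 over all its genes, and the 16 that fell all stayed below 0 with the trend removed, with KIF18A and SMC4 both at -0.10. Whether GC content has a part in these changes was not tested.

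The same question was put to 165 other genes of the pathway, in 9 lists. Over all genes tested, 21.2% rose and 18.9% fell in Huh-7, and 16.8% rose and 15.3% fell in the line labelled Hep-3B. A list near these shares does not stand out from all genes. In Huh-7, 9 of 22 G2/M transcription regulators rose (40.9%) and 1 fell (4.55%). In the line labelled Hep-3B 7 rose (31.8%) and 3 fell (13.6%). FOXM1, the activator of late cell cycle genes, was at 0.05 in Huh-7 and 0.16 in the line labelled Hep-3B and passed in neither (adjusted p = 0.481 and 0.0724). MYBL2, the gene of B-MYB, was at 0.13 in Huh-7 (adjusted p = 0.0509) and rose by 0.65 in the other line (edgeR adjusted p = 4.41e-06). RBL2, which encodes the DREAM repressor p130, fell in both lines, by 0.49 in Huh-7 and by 0.47 in the line labelled Hep-3B. LIN54, the DREAM subunit that reads the CHR, was at 0.00 in Huh-7 and rose by 0.37 in the other line, and NFYB, a subunit of the CCAAT-binding factor, was at -0.01 and rose by 0.93. CDKN1A, which encodes the CDK inhibitor p21, was at -0.02 in Huh-7 and -0.04 in the other line (adjusted p = 0.850 and 0.675). E2F4, a DREAM component, rose by 0.32 in Huh-7.

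Of 33 further kinetochore and centromere genes, 32 were tested in each line. In Huh-7 6 rose (18.8%) and 10 fell (31.2%), while 13 rose (40.6%) and 2 fell (6.25%) in the line labelled Hep-3B. CENPQ (1.10), CENPH (1.03) and ZWILCH (0.90), of the inner kinetochore and of the checkpoint complex, were the clearest rises there, and CENPK (-0.37) was called lower in Huh-7, where CENPN (0.36) and PMF1 (0.53) were called higher. Of 17 APC/C subunits, 7 rose in Huh-7 and the other 10 did not pass, the risers including CDC16 (0.53), ANAPC13 (0.47) and ANAPC1 (0.33), and 3 rose and 3 fell in the other line, with ANAPC13 (0.60) higher and ANAPC2 (-0.51) and ANAPC7 (-0.33) lower. Of 5 further mitotic kinesins, KIF20B (-0.44), KIF22 (-0.32) and KIFC1 (-0.25) fell in Huh-7, and KIF20B rose by 0.76 in the line labelled Hep-3B (edgeR adjusted p = 0.0476). Of 12 transport kinesins, which carry cargo outside mitosis, 5 rose (41.7%) and 1 fell (8.33%) in Huh-7. In the other line 3 rose (25.0%) and 2 fell (16.7%). KIF5B rose in both lines, by 0.29 in Huh-7 and 0.21 in the other, and the 0.21 was -0.01 with the GC and length trend removed. KIF21A (0.34) rose and KIF3C (-0.62) fell in Huh-7, and KIF3A (0.53) rose and KIF16B (-0.41) fell in the line labelled Hep-3B.

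In the condensin and cohesin list of 18 genes, 4 rose (22.2%) and 4 fell (22.2%) in Huh-7. PDS5A (0.38), a cohesin regulator, was higher and the cohesin core genes RAD21 (-0.25) and SMC3 (-0.24) were lower. In the line labelled Hep-3B 4 rose (22.2%) and 2 fell (11.1%). The risers included WAPL (0.42), which releases cohesin, CDCA5 (0.39), which holds it on, and the shugoshin SGO1 (0.48). Of 14 mitotic entry and exit regulators, 2 rose in Huh-7 (14.3%) and the other 12 did not pass. The risers were CDC25A (0.49) and the CDK1-inhibiting kinase PKMYT1 (0.32). In the other line 6 rose (42.9%) and 8 did not pass, with PKMYT1 (0.53), MASTL (0.46), the kinase that restrains mitotic phosphatases, and PPP2R2A (0.35) higher. Of 19 further genes listed under spindle and cytokinesis, 7 fell in Huh-7 (36.8%) and 12 did not pass, with TROAP (-0.46), CKAP2L (-0.34) and HMMR (-0.29) lower. In the line labelled Hep-3B 7 rose (36.8%) and 1 fell (5.26%), with ARHGAP11A (0.61), KIFAP3 (0.40) and CKAP2L (0.30) higher. KIFAP3, counted in this list, encodes a subunit of the transport kinesin that holds KIF3A. Of 25 genes of G1/S and S phase, 10 rose and 1 fell in Huh-7, with UHRF1 (0.38), CDC6 (0.31) and PCNA (0.23), and 6 rose and 4 fell in the other line, with CCNE2 (0.97), CDC6 (0.88) and CCNE1 (0.83). The medians of the 9 lists ran from -0.25 in further mitotic kinesins to 0.15 in G1/S genes in Huh-7, and from 0.00 in APC/C subunits to 0.17 in kinetochore and centromere genes in the line labelled Hep-3B. With the length and GC trend removed, several rises in that line moved by over 1.5 times, to 0.59 for NFYB, 0.33 for KIF20B, 0.27 for WAPL, 0.26 for KIF3A, 0.15 for LIN54, 0.13 for KIFAP3 and CKAP2L and 0.11 for PPP2R2A. In Huh-7 CENPK was then at -0.22 and PKMYT1 at 0.51.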

How the data were processed

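RNA-seq was measured in 12 libraries, 3 in each of 4 groups. Per the labels' protocols, total RNA was freed of rRNA and turned into directional libraries. Reads were processed with cutadapt 4.6 and STAR 2.7.11b on GRCh38, per the submitters' processing notes. The tool, annotation release and strand setting behind the deposited gene counts are unknown from the sources used here. The deposited tables hold raw counts per Ensembl gene, 1 table per line, and all columns were mapped to samples by name. Totals of 17327615 to 25960237 counts bear on the precision, and the SE and p-values also take in the spread between these libraries.

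Each line was fitted alone with edgeR 4.0.16 in R 4.3.3 (filterByExpr with a minimum count of 10 and minimum total of 15, TMM factors, robust quasi-likelihood F-test, Benjamini-Hochberg adjustment over all genes tested, threshold 0.05), and the 4 groups together for the interaction. Fold changes are log2 of siARD1 over control, and the SE is the size of the log2 change divided by the root of F. Mean log2 CPM used a prior count of 2. Positions, exon length and GC content of the longest transcript come from GENCODE v29, symbols from the gene name table, and promoters from RefSeq (GRCh38.p14). The members and all lists were chosen with earlier results of these data known. Named genes are all members, FOXM1, MYBL2, CDKN1A and LIN54, and up to 3 changed genes per further list and line by adjusted p; NFYB in Huh-7 and the promoters shown fall outside this rule, and 1 gene that the rule names is not reported here. Other settings tried were DESeq2 1.42.0, limma-voom (limma 3.58.1), upper-quartile or RLE factors, no filter, a replicate block, each library left out, a length and GC trend removed, and other class definitions. On simulated data, each log2 change was planted in 50 genes per line, among 15772 tested for the line labelled Hep-3B and 15895 for Huh-7. In the line labelled Hep-3B, changes of 0.3, 0.5, 1 and 2 were recovered in 24, 78.0, 96.0 and 100% of them. In Huh-7 the shares were 26.0, 82.0, 100 and 100%. False calls numbered 6 and 9, respectively. These shares describe the simulated data only. The interaction fit recovered 222 of 390 planted differences with 11 false calls.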

Additional observations from a re-analysis of the deposited data

Results flagged for a closer look

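A response to siARD1 that differed between the lines, by edgeR's test of the interaction at an adjusted p under 0.05, drew attention to 14 members and to 34 of the other named genes of the pathway. Values are the log2 response in Huh-7 minus that in the libraries labelled Hep-3B, with no length and GC trend removed. Among the members the Huh-7 response was lower in CENPE (-1.67), TTK (-1.18), NUF2 (-1.15), SMC4 (-0.99), KIF11 (-0.96), CDK1 (-0.86), MAD2L1 (-0.57), SMC2 (-0.43), TOP2A (-0.42), PTTG1 (-0.42) and NCAPG (-0.38), and higher in AURKA (0.47), CCNB1 (0.41) and CCNB2 (0.28). Among kinetochore and centromere genes it was lower in CENPQ (-1.46), CENPH (-1.38), CENPK (-1.11) and ZWILCH (-0.84), and among regulators in NFYB (-0.96), MYBL2 (-0.53) and LIN54 (-0.39). It was lower in the mitotic kinesin, spindle and cytokinesis genes KIF20B (-1.22), KIFC1 (-0.41), HMMR (-0.86), ARHGAP11A (-0.79), CKAP2L (-0.66) and TROAP (-0.32). It was also lower in the cohesin and mitotic entry genes SGO1 (-0.44), WAPL (-0.38), SMC3 (-0.37), RAD21 (-0.35), CDCA5 (-0.28), MASTL (-0.58) and PPP2R2A (-0.29). The same held for the G1/S genes CCNE1 (-0.88), CCNE2 (-0.63) and CDC6 (-0.59) and the transport kinesin genes KIF3A (-0.81), KIFAP3 (-0.70) and KIF3C (-0.69). The Huh-7 response was higher in PMF1 (1.20), ANAPC2 (0.61), ANAPC7 (0.54), CDC16 (0.52), ANAPC1 (0.31), KIF16B (0.42), KIF21A (0.26) and PDS5A (0.24). Of the 41 tested members 34.1% passed the same threshold, and of all genes in this fit 31.4% did. Most of the other named genes had been picked from the same data by their adjusted p within a line. The 34 therefore cannot be compared with the share of all genes.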

How the results depend on the processing

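Counts over the members changed by more than 1.5 times under some alternatives. With no filter on low counts, 17 of 42 members changed in the libraries labelled Hep-3B (40.5%, against 20.8% of all genes) and 5 fell (11.9%, against 9.52%). With upper-quartile factors 1 member rose in Huh-7 (2.44%, against 16.1%). The class contrast in the line labelled Hep-3B was -0.14 with the length and GC trend removed and 0.20 over means, and in Huh-7 -0.12 over means. KIF5B in the line labelled Hep-3B reversed to -0.0058 with that trend removed. In Huh-7 the share of changed members was above that of all genes in 9 of 12 alternative fits. It was below without siARD1 library 1 (26.2%, against 34.4%), control library 2 (31.7%, against 34.2%) or control library 3 (31.0%, against 32.4%). Leaving out each library in turn gave 11 to 20 changed members in Huh-7 (2 to 5 rose, 8 to 17 fell), 11 to 18 in the line labelled Hep-3B (8 to 15 rose, 2 to 6 fell) and 12 to 21 that differed between lines (2 to 4 higher, 10 to 19 lower). The class contrast then ran from -0.20 to -0.15 in Huh-7 and from 0.05 to 0.09 in the other line, the NAA10 log2 fold change from -4.13 to -3.86 and from -2.11 to -1.88, and all genes changed from 5249 to 6137 and from 3695 to 4922. Without both libraries numbered 2 of the line labelled Hep-3B, an alternative chosen after seeing the data, 13 members changed (31.7%, against 22.4%) and the class contrast there was 0.03.

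Replicate numbers were not taken to pair the samples. Same-numbered libraries correlated by 0.03 to 0.07 in the line labelled Hep-3B, each best with its own number, and by -0.06 to 0.05 in Huh-7. With the replicate block, 19 members changed in the line labelled Hep-3B (14 rose, 5 fell), 46.3% against 35.5% of all genes, and 17 had the lower response in Huh-7 in the test between lines (41.5%, against 16.7%). The cause of these shifts was not tested. At 3 libraries a group, 26.0% of genes planted at a log2 change of 0.3 were recovered in Huh-7 and 24% in the other line. In the Huh-7 libraries themselves SMC4 passed at -0.15 and KIF18A at -0.17, so the planted shares need not hold for the measured genes. How often a change was missed in the measured genes was not tested. A change that did not pass is not shown to be absent.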
